A study of Mus musculus with 9 samples.

Results

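Metallothioneins are small proteins rich in cysteine that bind zinc and copper, buffer the free level of both metals and can take up reactive oxygen species. In mice Mt1 and Mt2 are made in most tissues and are transcribed more when zinc, heavy metals or glucocorticoids rise, zinc acting through the metal-sensing transcription factor Mtf1. Mt3 is the brain form, first described as a factor that inhibits neurite growth, and is known from astrocytes and from neurons that store zinc in synaptic vesicles. These 3 genes, taken by name, are described here among the 18634 genes of the UMI table. Another member, Mt4, a gene of stratified epithelia, is not among the gene names of that table.

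Cells came from male C57BL/6 mice (C57BL/6 J in the methods) of 9 to 11 weeks, with the tissue of 3 mice pooled in each of 9 libraries, 1 for each of 3 brain regions (brainstem, cortex, hypothalamus) in each of 3 sleep states. NS mice slept normally, SD mice were kept awake for 12 h from lights on (ZT0, the start of the light phase), and RS mice had the same deprivation and then recovery sleep, for which the sources give 24 h in one place and 12 h in another. All brains were taken at ZT12. Suspensions were made with papain and cleared of debris with myelin removal beads, so the cells counted are those that outlived both steps. Each library is 1 pool with no replicate, and intervals below are exact 95% intervals for counting error only.

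The table marks each cell by a barcode and a library code, and libraries are numbered 1 to 9 in the order of those codes. A cell list that comes with the data gives barcodes of brainstem NS cells with a cell type. All 1999 of these barcodes are found in library 7, which is therefore taken as brainstem NS, while any other library holds 5 to 13 of them. The region and sleep state of the other 8 libraries are not given by their codes, so no comparison between sleep states or regions was made. Libraries held 2575 to 3916 cells with a median of 402 to 1055 UMIs per cell. Of 29015 distinct barcodes, 549 occur in more than 1 library, and leaving them out moved none of 102 metallothionein levels compared beyond its interval. In libraries 4, 5 and 6 pituitary hormone transcripts took 30.3%, 30.0% and 37.9% of all UMIs, against at most 0.00959% elsewhere, which lowers the level of every other gene there.

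All 3 genes lie on the forward strand of chromosome 8 in GRCm38, the build of the deposited data. GENCODE M21 places Mt3 at chr8:94152607-94154146, Mt2 at chr8:94172664-94173568 and Mt1 at chr8:94179082-94180327, with gaps of 18517 bases between Mt3 and Mt2 and 5513 bases between Mt2 and Mt1. The longest run of identical bases between their transcripts was 20 bases for Mt1 and Mt2, 27 for Mt1 and Mt3 and 20 for Mt2 and Mt3. Upstream sequences are shown because Mtf1 acts through metal response elements, whose core is TGCACNC or TGCGCNC. Each is the 250 bases before the RefSeq start, 5′ to 3′, with matches to either core on either strand in capitals (GRCm38.p6, Mt1 at chr8:94178839-94179088, Mt2 at chr8:94172368-94172617, Mt3 at chr8:94152357-94152606).
Mt1: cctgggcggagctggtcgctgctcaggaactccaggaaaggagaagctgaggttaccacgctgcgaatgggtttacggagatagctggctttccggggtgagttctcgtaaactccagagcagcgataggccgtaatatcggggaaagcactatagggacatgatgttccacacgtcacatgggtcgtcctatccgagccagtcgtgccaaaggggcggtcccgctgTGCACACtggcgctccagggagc
Mt2: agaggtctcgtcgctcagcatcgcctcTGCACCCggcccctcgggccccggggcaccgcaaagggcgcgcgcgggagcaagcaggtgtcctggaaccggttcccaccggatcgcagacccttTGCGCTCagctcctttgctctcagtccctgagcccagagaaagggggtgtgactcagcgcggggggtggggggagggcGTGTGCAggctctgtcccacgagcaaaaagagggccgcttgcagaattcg
Mt3: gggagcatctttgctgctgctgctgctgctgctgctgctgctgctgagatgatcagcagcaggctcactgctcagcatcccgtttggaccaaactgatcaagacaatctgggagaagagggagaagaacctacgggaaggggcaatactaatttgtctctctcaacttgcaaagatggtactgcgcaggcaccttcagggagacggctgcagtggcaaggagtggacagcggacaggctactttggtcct
Mt2 held 3 matches, at positions -223 to -217, -128 to -122 and, on the reverse strand, -50 to -44 from the start. Mt1 held 1 match in its window, at -23 to -17 from the RefSeq start, and Mt3 held none. Among 32851 upstream windows of this length, 21.4% held at least 1 match and 1.26% held at least 3. The antioxidant response core TGACNNNGC occurred 1 time in the Mt2 window, on the forward strand and apart from the capitals, and in neither of the others, against 10.2% of all windows. The full palindromic glucocorticoid response element was in none of the 3 windows and in 3 of all windows. RefSeq and GENCODE place the starts differently: the Mt1 window runs 7 bases into the GENCODE gene and the Mt2 window ends 46 bases before it. Bases past the RefSeq start were not searched, and GENCODE lists 3 transcripts of Mt1, 2 of Mt2 and 3 of Mt3. The counts of matches are therefore those of these windows, and do not rank the whole promoters of the 3 genes. Letters that match or do not match say nothing here of binding.

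Over all cells the 3 genes were abundant, at 4037 Mt1, 1158 Mt2 and 1899 Mt3 CPM (UMIs of the gene scaled to a total of 1000000). UMIs of this assay count 3′ ends of molecules and carry no gene length term, so a ratio between genes is a ratio of counted molecules. Mt1 ran from 2315 CPM in library 7 through a median of 4702 to 7375 in library 2. Mt2 ran from 592 CPM in library 7 through 1185 to 2237 in library 2. Mt3 ran from 906 CPM in library 4 through 2071 to 3068 in library 9. Mt1 was thus the highest of the 3 genes in all 9 libraries, and the order of the libraries was not the same for Mt3 as for Mt1 and Mt2. The level of Mt2 exceeded that of Mt3 in library 4 alone, at 962 against 906 CPM, where the intervals overlapped. Library 2 exceeded library 7 3.19 times for Mt1 and 3.78 times for Mt2, and without library 7 the range of Mt2 was 2.33 times. Among cells of at least 1000 UMIs the order turned, with ratios of 0.480 and 0.479.

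**Figure D1:**
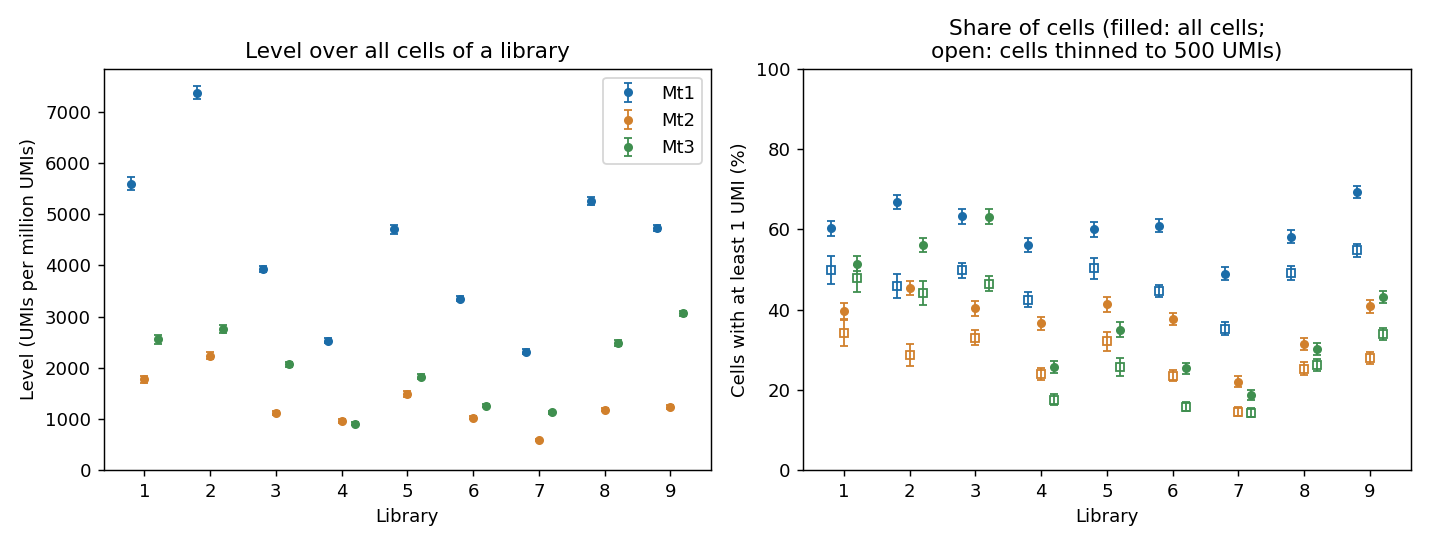
Level of Mt1, Mt2 and Mt3 in each of the 9 libraries over all cells (left, CPM) and the percent of cells with at least 1 UMI (right), with exact 95% counting intervals; open squares are cells thinned to 500 UMIs. Library 2 was highest for Mt1 and Mt2 and library 9 for Mt3.

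At least 1 Mt1 UMI was found in 49.0% (library 7) to 69.4% (library 9) of cells, with a median over libraries of 60.3%. For Mt2 the shares ran from 22% in library 7 to 45.3% in library 2, and for Mt3 from 18.8% in library 7 to 63.1% in library 3. After each cell was thinned to 500 UMIs, leaving out shallower cells, the Mt1 shares ran from 35.2% in library 7 to 54.8% in library 9. Thinned Mt2 shares ran from 14.5% in library 7 to 34.2% in library 1, and thinned Mt3 shares from 14.3% in library 7 to 47.7% in library 1. Only 840 of 2575 cells of library 1 and 1139 of 3175 of library 2 reached 500 UMIs, against 3705 of 3731 in library 7. At 1000 UMIs the order of libraries 1 and 7 turned for Mt2, with 16.0% of 326 cells in library 1 and 22.8% in library 7. Free RNA in droplets adds UMIs to cells of any type, and these shares include it.

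Which cells carried the transcripts could be read most directly in library 7, where the list gives cell types to 1999 of 3731 cells. Ependymocytes (EPC), the ciliated cells that line the ventricles, had the highest level of each gene. In 88 EPC the levels were 11092 CPM of Mt1 (10597 to 11603), 3515 CPM of Mt2 (3239 to 3808) and 8644 CPM of Mt3 (8208 to 9097). Astrocytes, the glia that take up transmitter and ions around synapses, came next with 7925 CPM of Mt1 (7507 to 8359), 2200 of Mt2 (1983 to 2435) and 2865 of Mt3 (2616 to 3131) in 188 cells. EPC exceeded astrocytes 1.40 times for Mt1 (1.30 to 1.5), 1.60 times for Mt2 (1.40 to 1.82) and 3.02 times for Mt3 (2.72 to 3.35). These intervals of the ratio lie above 1 for all 3 genes, and the step was widest for Mt3. Within EPC, Mt1 was the 5th, Mt3 the 8th and Mt2 the 18th most abundant of all genes; within astrocytes Mt1 was the 9th, Mt3 the 21st and Mt2 the 26th.

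Together EPC and astrocytes made up 13.8% of listed cells and 15.1% of their UMIs, but held 67.2% of Mt1, 76.3% of Mt2 and 93.5% of Mt3 UMIs. EPC alone held 70.2% of Mt3. All 3 genes were at least 2 times as high in EPC as in the other listed cells, on the log2(CPM + 10) scale, as were 18.6% of the 10820 genes compared. In astrocytes all 3 again passed that fold, beside 14.2% of 10545 genes. The ratio to the other listed cells was 7.89 for Mt1, 10.8 for Mt2 and 28.8 for Mt3 in EPC, where Mt3 had the 28th largest difference of all genes compared. In astrocytes it was 4.75, 5.08 and 3.70. In no other listed type of at least 50 cells did any of the 3 genes pass the fold upward. The shares of all genes that did so were 10.2% in endothelial cells, 9.71% in microglia, 9.21% in macrophages, 9.23% in pericytes, 6.19% in VSMCA and 21.6% in glutamatergic neurons.

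**Figure D2:**
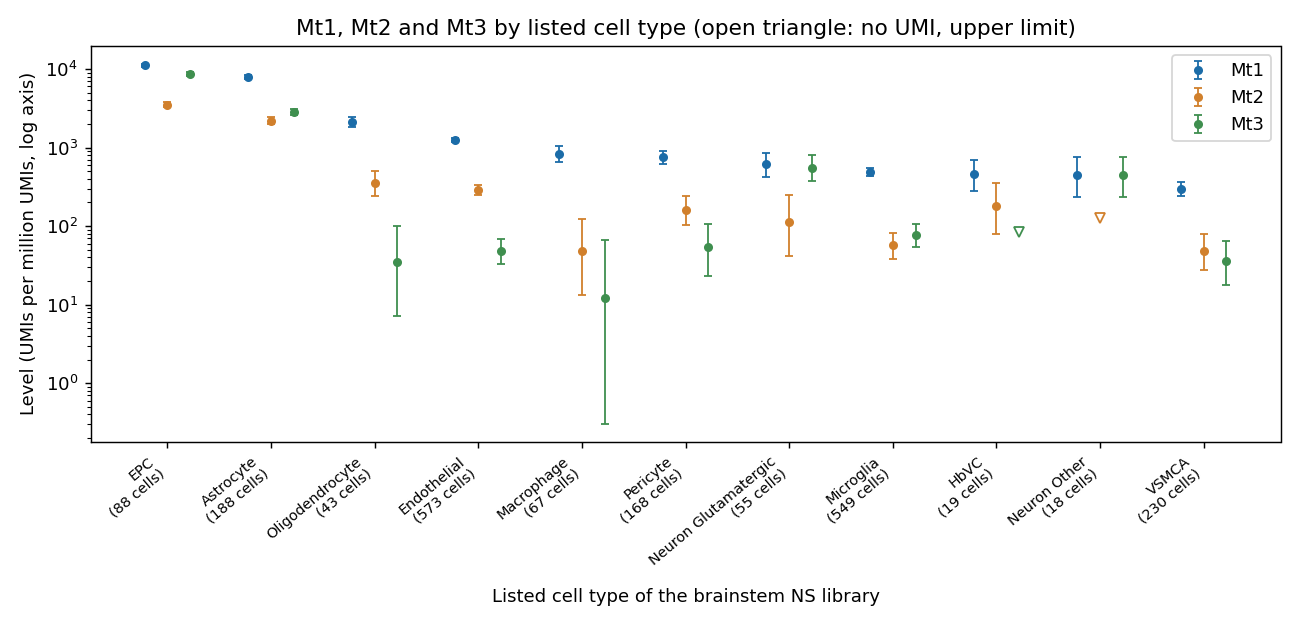
Level of Mt1, Mt2 and Mt3 (CPM, log axis) in each listed cell type of the brainstem NS library, ordered by Mt1, with exact 95% counting intervals; open triangles mark the upper limit where no UMI was counted. EPC and astrocytes lie above all other types for each gene, and Mt3 falls below Mt2 outside EPC, astrocytes, microglia and neurons.

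Below EPC and astrocytes the genes parted. Endothelial cells, which form the vessel lining and the blood-brain barrier, had 1246 CPM of Mt1 (1162 to 1335), 285 of Mt2 (246 to 329) and only 47.8 of Mt3 (32.5 to 67.9) in 573 cells. Their Mt1 lay above that of macrophages (831 CPM) and pericytes (757 CPM), and the intervals did not overlap. From macrophages down to the lowest type, neighbours in the Mt1 order had overlapping intervals: pericytes, glutamatergic neurons (610 CPM), microglia (491), HbVC (455), other neurons (441) and VSMCA (299). HbVC are vascular cells with hemoglobin transcripts and VSMCA are arterial smooth muscle cells. Hemoglobin genes and Alas2 took 30350 of the 43957 UMIs of HbVC, which lowers every other level there. With mitochondrial and hemoglobin genes left out of the totals, levels of listed types became 1.04 to 3.44 times as high. The place of HbVC in this order is therefore one of plain totals. For Mt2 every neighbouring pair from oligodendrocytes (358 CPM) and endothelial cells down overlapped, and the 18 other neurons had no Mt2 UMI, with an upper limit of 125 CPM.

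Neurons came after EPC and astrocytes for Mt3. The 55 glutamatergic neurons had 553 CPM of Mt3 (370 to 794) and the 18 other neurons 441 (235 to 755), close to their Mt1 levels of 610 and 441 CPM. Both lay above microglia at 76.9 CPM (54.7 to 105), with intervals apart. Pericytes, endothelial cells, VSMCA, oligodendrocytes and macrophages had 54.1, 47.8, 35.7, 34.6 and 12.0 CPM of Mt3. HbVC had none in 43957 UMIs, which allows up to 83.9 CPM. Hemoglobin genes and Alas2 made up 30350 of these UMIs, so the limit would be higher without them in the total. The neuronal Mt3 rested on 42 UMIs in 73 cells. All 8 astrocyte markers were detected in the glutamatergic neurons, at a summed 744 CPM, beside 13908 CPM in astrocytes, 818 in pericytes, 419 in VSMCA and 325 in microglia. The part of astrocyte RNA in the neuronal Mt1 and Mt3 was not tested. With the level of the lowest type, 299 CPM, subtracted from each type as an estimate of free RNA, Mt1 became 10793 CPM in EPC, 7626 in astrocytes, 947 in endothelial cells, 312 in glutamatergic neurons, 192 in microglia and 0 in VSMCA. Mt2 and Mt3 could not be corrected in this way, since the types lowest in them had no UMI in small totals. The upper limits there were 125 CPM of Mt2 and 83.9 CPM of Mt3. The former lies above the level of Mt2 in glutamatergic neurons, microglia, VSMCA and macrophages. The latter lies above the level of Mt3 in microglia, pericytes, endothelial cells, VSMCA, oligodendrocytes and macrophages.

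Labels of the list were set against marker genes, and not all of them stood clear. EPC, astrocytes, endothelial cells, microglia, macrophages, pericytes, VSMCA and HbVC had every own marker at least 2 times as high as the other listed cells. Glutamatergic neurons did so for all 8 markers of a list for neurons in general. That list includes Gad1 and Gad2, genes of GABA neurons, found in 12.7% and 10.9% of these cells. Slc17a6 was found in 21.8% and Slc17a7 in 9.09%. The list does not check the glutamatergic label. Lists of other types also passed in full in some of them: all 6 fibroblast markers in pericytes, at a summed 4495 CPM, all 4 neutrophil markers in HbVC, at 10556 CPM, and all 3 T cell markers in macrophages, at 313 CPM. The 43 cells listed as oligodendrocytes did not pass for their own markers: Cldn11 passed, in 51.2% of them, but the myelin genes Mag, Mobp and Ermn had no UMI and Mbp had 1 UMI. Clusters led by fibroblast or leptomeningeal genes held 39 of the 43. Their Mt1 level of 2101 CPM (1807 to 2429) therefore stands for the listed cells and not for checked oligodendrocytes; 3 UMIs of Mt3 in 86637 gave 34.6 CPM (7.14 to 101). Among the 168 pericytes, 49 fell in the same clusters, and the 10% of pericytes with the most Mt1 held 67.0% of the type's Mt1.

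Shares of cells told the same types apart. A Mt1 UMI was found in 97.7% of EPC, 94.7% of astrocytes, 58.5% of endothelial cells and 31.5% of microglia, and the share was lowest in glutamatergic neurons at 25.5% and VSMCA at 28.3%. Mt3 was found in 98.9% of EPC, 80.3% of astrocytes and 38.2% of glutamatergic neurons, against 4.78% of VSMCA, 5.24% of endothelial cells and 6.56% of microglia. Median depth was 1752 UMIs in EPC, 771 in astrocytes, 718 in glutamatergic neurons and 1320 in VSMCA. Thinned to 500 UMIs, Mt3 was in 95.5% of EPC, 70.8% of astrocytes, 25.5% of glutamatergic neurons and 0.870% of VSMCA (0.105% to 3.11%). In macrophages the thinned Mt3 share was 0 of 66 cells, which allows up to 5.44%. Mt3 in glutamatergic neurons was thus above the share in the vascular and immune types at equal depth, while Mt1, in 11 of these 55 cells, was found about as often as in microglia (20.1%) and pericytes (21.3%). VSMCA had the lowest thinned share of Mt1 among types of at least 50 cells, 12.2%, with Mt2 in 3.04%, free RNA included.

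Cells of one type differed widely. Astrocytes had a median of 5 Mt1 UMIs per cell, with quartiles at 3 and 8 and 48 in the highest cell, and 5.32% had none. EPC had a median of 20 Mt1 UMIs (quartiles 10.8 and 27.3, highest 79), 6 Mt2 UMIs and 15 Mt3 UMIs. Endothelial cells had a median of 1 Mt1 UMI and a highest count of 13. The variance of Mt1 UMIs over cells was 6.91 times the mean in astrocytes, 11.0 times in EPC and 2.57 times in endothelial cells, where counting alone gives a ratio near 1; differences in depth between cells are part of this. Astrocytes below the median depth of 771 UMIs had 7131 CPM of Mt1 (6471 to 7841) and those at or above it 8356 (7825 to 8914), while EPC split at 1752 UMIs had 12623 (11673 to 13630) and 10425 (9853 to 11023).

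Detection in the same cell, at 500 UMIs, was close to the product of the single shares in both glial types. Mt1 and Mt2 were found together in 53.5% of 185 astrocytes (46.0% to 60.9%) against a product of 51.1%, and Mt1 and Mt3 in 64.9% against 64.3%. In EPC the pairs with Mt1 gave 79.5% against 76.4% and 88.6% against 87.9%. Mt1 alone was found in 90.8% of these astrocytes and 92.0% of these EPC, which leaves little room for another joint share. The likeness to the product therefore does not tell whether the genes vary together in these 2 types. In endothelial cells Mt1 and Mt2 were together in 7.37% of 570 cells (5.36% to 9.83%), above the product of 4.93%. In pericytes they were together in 7 of 164 cells, 4.27% (1.73% to 8.60%), against 1.56%. For Mt1 with Mt3 the endothelial value was 1.23% against 1.20%.

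Proportions among the 3 genes differed between types as well. Astrocytes had 3.60 Mt1 UMIs for each Mt2 UMI and EPC 3.16, endothelial cells 4.37, microglia 8.59 and macrophages 17.3, the last resting on 4 Mt2 UMIs. Library 7 was the highest library in this ratio for both immune classes followed across libraries below, at 7.83 in microglia-like cells, where the lowest was 3.32 and the median 3.99, and 18.5 in macrophage-like cells, where the lowest was 4.60 and the median 7.03. For each Mt1 UMI there were 0.779 Mt3 UMIs in EPC, 0.362 in astrocytes, 0.906 in glutamatergic neurons and 0.0384 in endothelial cells. Mt3 made up 43.8% of Mt1 and Mt3 UMIs in EPC (42.1% to 45.5%) and 26.6% in astrocytes (24.5% to 28.6%), with intervals apart.

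To follow the genes across all libraries, cells were clustered without Mt1, Mt2 and Mt3, and clusters were called astrocyte-like, EPC-like and so on from fixed markers. In library 7 these classes held 182 of 188 listed astrocytes, 82 of 88 EPC, 541 of 549 microglia, 514 of 573 endothelial cells, 115 of 168 pericytes and 3 of 19 HbVC, of which 13 fell in endothelial-like clusters. Values below are for a class with at least 50 cells in a library. Astrocyte-like cells numbered at least 50 in 8 libraries, all but library 6 with 24, and EPC-like cells in 6 libraries (4 to 9). Mt1 was highest in astrocyte-like cells in 5 libraries (1 to 5) and in EPC-like cells in 4 (6 to 9). Mt3 was highest in EPC-like cells in all 6 libraries that had them and in astrocyte-like cells in the remaining 3. For Mt2 the highest class was astrocyte-like in 6 libraries, EPC-like in library 7, pituitary stem-like in library 6 and an unnamed cluster in library 9. In libraries 6 and 8 the first and second class had overlapping intervals. The same 20 astrocyte-like cells of library 6, left out by the limit, had 5479 CPM of Mt2 (4351 to 6809), beside 2496 in its pituitary stem-like cells.

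Levels within astrocyte-like cells were far from constant. Mt1 was 22400 CPM in library 2, 18877 in library 5, 16852 in library 3, 16031 in library 1, 12331 in library 4, 12146 in library 8, 8960 in library 9 and 8170 in library 7. That is 2.74 times from lowest to highest (2.62 to 2.87). Mt2 spanned 2310 CPM in library 7 to 6946 in library 2 and Mt3 2854 in library 9 to 7548 in library 2, a ratio of 3.01 and 2.64. The libraries fell into nearly the same order for each gene, with libraries 7, 8 and 9 at the low end of all 3. Different clusters held most of this class in different libraries. Cluster 2, led by Htra1 and Pantr1, held 72.9% and 63.6% of the astrocyte-like cells of libraries 1 and 2, cluster 10, also led by these genes, 71.8% of library 3, and cluster 8, led by Agt and Slc6a11, 71.2% to 93.2% of libraries 4, 5, 7, 8 and 9. Over all libraries Mt1 was 17539 CPM in cluster 2, 19999 in cluster 10 and 11783 in cluster 8. The part of these clusters in the order of libraries was not tested beyond the values within each. Within cluster 8 Mt1 still ran from 8532 CPM in library 7 to 19929 in library 5, a ratio of 2.34, and the ratios of Mt2 and Mt3 were 2.68 and 2.13. Within clusters 2 and 10 the highest library exceeded the lowest 1.56 and 1.41 times for Mt1 over the 3 libraries with 50 cells. These are libraries 1, 2 and 3, where the whole class ran from 16031 to 22400 CPM. Within the smaller cluster 21 the ratio was 3.04 over libraries 2, 3 and 9. These values within clusters were added after the data were seen. A highest library at least 2 times the lowest was common: 78.3% of 11227 genes in these cells passed it, and 55.1% of the 287 genes of at least 500 CPM. A spread of 2-fold is therefore nothing particular to the metallothioneins. The summed level of 8 astrocyte markers in the same cells ran from 12032 CPM (library 9) to 18418 (library 2), all 8 being detected in each library.

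**Figure D3:**
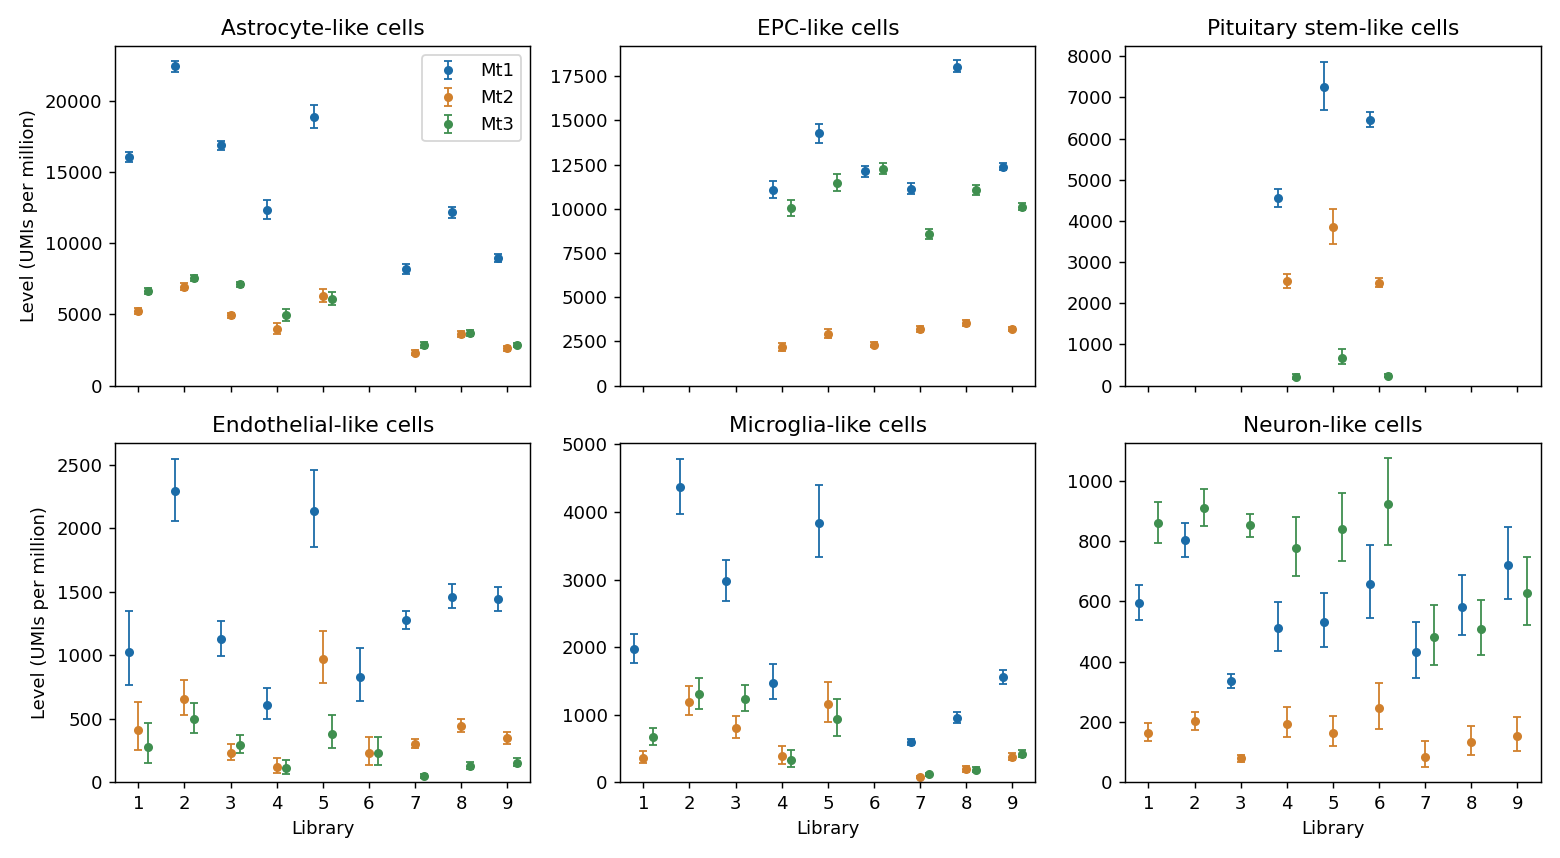
Level of the 3 genes (CPM) in 6 classes of cells by library, with exact 95% counting intervals; libraries with fewer than 50 cells of a class are left out, and each panel has its own scale. Mt1 in astrocyte-like cells ranges from 8170 to 22400, Mt3 in EPC-like cells from 8572 to 12274, and Mt3 in neuron-like cells stands above Mt1 in 7 of 9 libraries over cells of all depths, an order that turns below 1000 UMIs in libraries 1, 2, 3 and 7.

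Depth differed between these libraries, with a median of 367 UMIs in astrocyte-like cells of library 2 and 887 in library 9, so levels were also read within bands of depth. In cells of at least 500 and under 1000 UMIs, Mt1 was 23826 CPM in library 2, 18370 in library 1, 16325 in library 3, 12935 in library 4, 12031 in library 8, 9022 in library 9 and 7159 in library 7. Mt2 and Mt3 gave that same order of the 7 libraries, from 7054 down to 1977 CPM and from 8189 down to 2615 CPM. In cells of at least 1000 UMIs, 4 libraries had 50 or more cells, and Mt1 ran from 8887 in library 9 through 9718 in library 7 and 13883 in library 8 to 18508 in library 3. The spread was thus 3.33 times over 7 libraries between 500 and 1000 UMIs and 2.08 times over 4 libraries in the deepest band. For the libraries of the deepest band, 3, 7, 8 and 9, the band below ran from 7159 to 16325 CPM. The part of depth, and of which libraries entered a band, in the fall in spread was not tested.

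**Figure D4:**
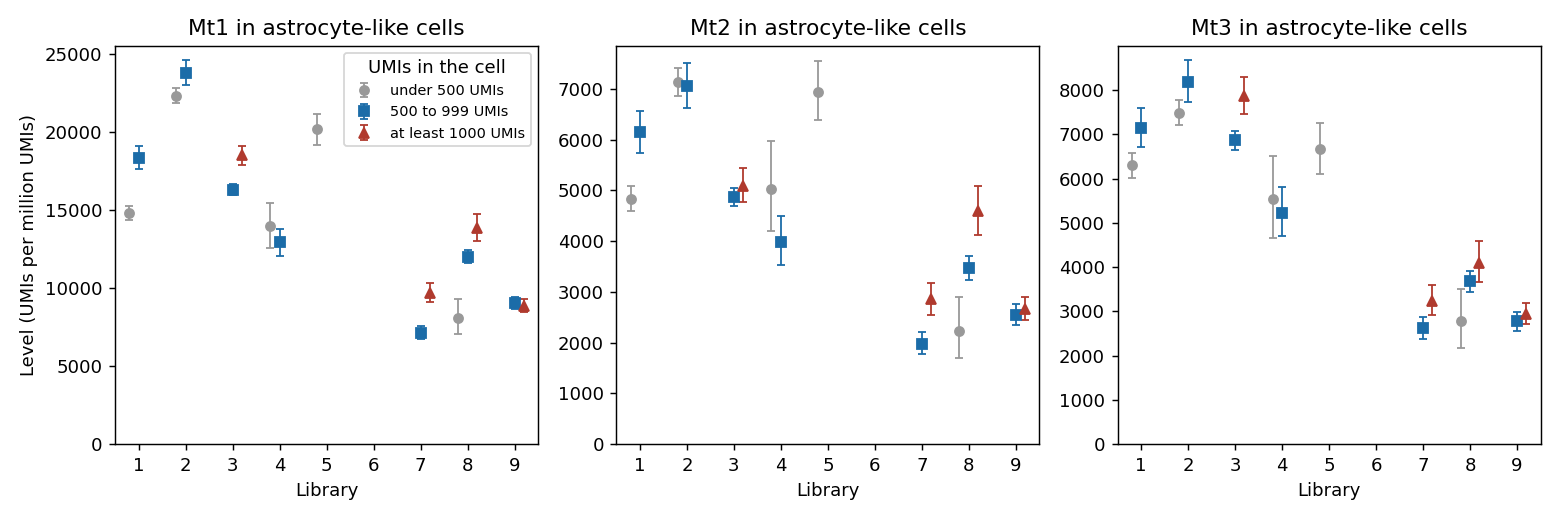
Level of Mt1, Mt2 and Mt3 (CPM) in astrocyte-like cells by library, split by the number of UMIs in the cell, with exact 95% counting intervals; groups of fewer than 50 cells are left out. In the band from 500 to under 1000 UMIs the order of libraries is 2, 1, 3, 4, 8, 9, 7 for each gene.

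EPC-like cells varied less. Mt1 lay between 11092 CPM in library 4 and 18054 in library 8, a ratio of 1.63. Mt2 lay between 2183 in library 4 and 3543 in library 8, and Mt3 between 8572 in library 7 and 12274 in library 6, a ratio of 1.43. None of the 3 genes reached a 2-fold range, which 49.8% of 11486 genes did, and 17.8% of the 349 genes of at least 500 CPM. Library 8 stood highest for Mt1, with libraries 4, 5, 6, 7 and 9 between 11092 and 14278, whereas for Mt3 library 8 came after libraries 6 and 5, at 11061.

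Neuron-like cells were low in Mt1, at 336 CPM (library 3) to 803 (library 2), and in Mt2, at 78.9 to 245. Their Mt3 ran from 482 CPM in library 7 to 924 in library 6, and exceeded Mt1 in 7 of 9 libraries, with intervals apart in 5. Mt1 was above Mt3 in libraries 8 and 9, where the intervals overlapped. The order of Mt1 and Mt3 also turned with depth in libraries 1, 2, 3 and 7, counting bands of at least 50 cells. In cells of at least 500 and under 1000 UMIs Mt1 stood above Mt3, at 907 against 627 CPM in library 1, 798 against 613 in library 2, 622 against 545 in library 3 and 477 against 443 in library 7, with overlapping intervals in each. Under 500 UMIs library 2 had 2133 CPM of Mt1 (1860 to 2435) and 1422 of Mt3 (1201 to 1672), with intervals apart. In cells of at least 1000 UMIs Mt3 stood above Mt1, at 900 against 440 CPM in library 1, 925 against 599 in library 2 and 881 against 309 in library 3, with intervals apart, and at 512 against 395 in library 7, where they overlapped. The part of depth and of cell kind in this turn was not tested. The class was made of different clusters in different libraries. Cluster 3, led by Nrgn and Slc17a7, genes of glutamatergic forebrain neurons, held 86.5% of the class in library 3, 56.3% in library 1 and 60.0% in library 2, and its Mt3 of 839 to 853 CPM stood above its Mt1 of 302 to 609. Cluster 12, led by Avp and Oxt, which encode hypothalamic peptides, held 64.0% to 94.5% of the class in libraries 4 to 9, with Mt3 at 557 to 937 CPM and Mt1 at 485 to 843. In cluster 13, which had no fixed neuron marker among its leading genes, Mt1 was above Mt3 in 5 of 7 libraries, so the order of the genes in the whole class is not that of each cluster. Library 3, with the most UMIs in these cells, had 852 CPM of Mt3 against 336 of Mt1 and 78.9 of Mt2. Elsewhere Mt3 led in 80 choroid plexus epithelium-like cells of library 9, at 2012 CPM against 942 of Mt1 and 216 of Mt2, and by a margin within the intervals in EPC-like cells of library 6. Mt1 and Mt2 passed a 2-fold range over libraries in neuron-like cells and Mt3 did not, beside 88.2% of all genes there.

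Microglia-like cells had 593 CPM of Mt1 in library 7 and 4369 in library 2, and the ratio of 7.37 became 4.57 without library 7. Mt2 ran from 75.7 to 1194 CPM and Mt3 from 116 to 1301, between the same libraries, ratios of 15.8 and 11.2 that became 6.18 and 6.95 without library 7. A 2-fold range was passed by all 3 genes and by 91.4% of the 12402 genes compared. Much of the level lay in cluster 23, led by the microglial genes Inpp5d and Siglech, whose 6.95% of microglia-like cells held 42.2% of the class's Mt1, 55.9% of its Mt2 and 51.8% of its Mt3 UMIs. Mt1 was 7876 CPM there and 682 to 1182 in the other clusters of the class. Its cells were 17.0% of the class in library 2, 24.8% in library 5 and 0.609% in library 7. The same cluster had 9449 CPM of summed astrocyte markers, against 425 to 597 CPM in the other microglia-like clusters. Without it, a choice made after the data were seen, Mt1 ran from 551 CPM in library 7 to 2186 in library 5, a ratio of 3.97, and the ratios of Mt2 and Mt3 were 4.84 and 4.08. The 8 astrocyte markers, all detected in these cells, summed to 412 CPM in library 7 and 3660 in library 2. For each astrocyte marker UMI there were 0.884 to 1.61 Mt1 UMIs in microglia-like cells and 0.564 to 1.26 in astrocyte-like cells. Libraries 7 and 2 were thus lowest and highest in microglia-like cells for the metallothioneins and for astrocyte markers alike, and the part of astrocyte RNA in the former was not tested.

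In endothelial-like cells Mt1 ran from 611 CPM in library 4 to 2292 in library 2, beside 205 CPM (library 7) to 1126 CPM (library 2) of summed astrocyte markers, of which 6 to 8 were detected. Mt1 UMIs per astrocyte marker UMI ran from 1.30 in library 1 to 6.24 in library 7, and were 5.45 and 3.28 in libraries 8 and 9. In library 7 that is above the 0.564 of astrocyte-like and the 1.44 of microglia-like cells. Mt3 ran from 49.4 CPM in library 7 to 495 in library 2, and this 10.0-fold range was 4.50-fold without library 7. The astrocyte markers were lowest and highest in the same libraries, and Mt3 UMIs per astrocyte marker UMI were 0.242 and 0.440 there, beside 0.198 and 0.410 in astrocyte-like cells. The part of astrocyte RNA in endothelial Mt3 was not tested. Mt2 ran from 122 CPM in library 4 to 969 in library 5, 7.93-fold, or 4.28-fold without library 4. All 3 genes passed a 2-fold range, as did 91.7% of the genes compared.

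Pituitary-like cells, present in libraries 4, 5 and 6, had Mt1 and Mt2 but little Mt3. Pituitary stem-like cells, a class named from stem cell and folliculostellate markers, had 4555, 7259 and 6455 CPM of Mt1 in these libraries, and 2528, 3842 and 2496 CPM of Mt2. Mt3 was 217, 681 and 243 CPM. With 1.80, 1.89 and 2.59 Mt1 UMIs per Mt2 UMI, Mt2 had a larger part here than in astrocyte-like cells, where the ratio ran from 3.00 to 3.54 over 8 libraries. Hormone-making endocrine-like cells had 1358, 2358 and 1760 CPM of Mt1 and 146, 137 and 162 CPM of Mt3. Within them, cluster 7, led by Cidea and with growth hormone (Gh) among its leading genes, had 3367 CPM of Mt1, against 757 in cluster 0 and 2043 in cluster 19, and with 27.3% of the endocrine-like cells it held 62.8% of their Mt1 UMIs. Both pituitary-like classes together held 48.0%, 30.5% and 62.3% of the Mt1 UMIs of libraries 4, 5 and 6, and 11.7%, 5.10% and 11.3% of Mt3. An unnamed cluster of 768 cells led by Col23a1 and Rax had 4640 to 10961 CPM of Mt1 and 1661 to 4627 of Mt3 in libraries 4, 5, 6 and 9, where the range of Mt3 was 1.83 times without library 9.

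**Figure D5:**
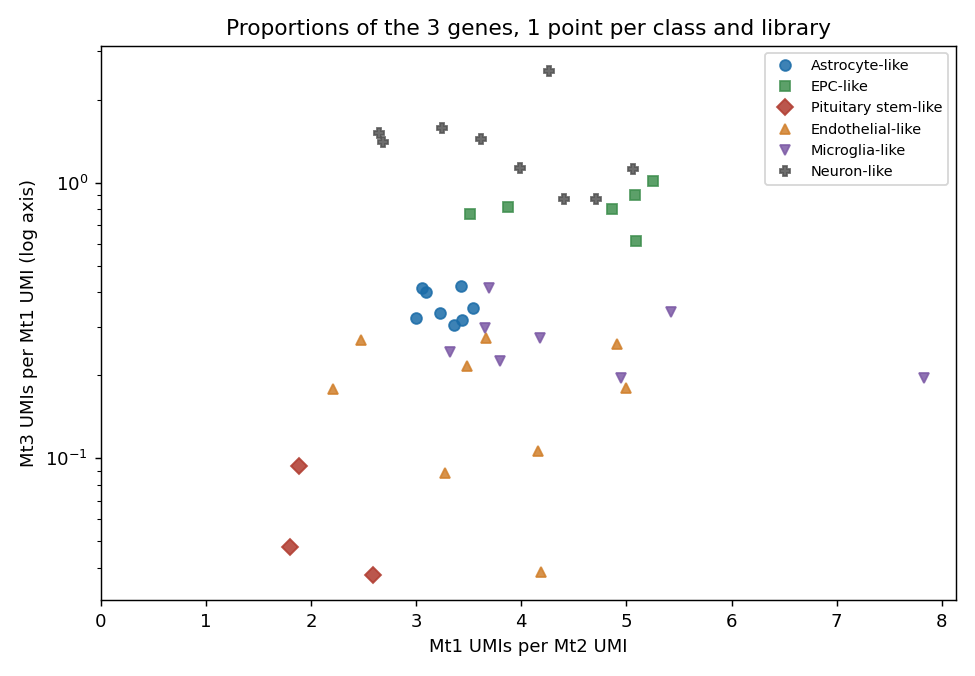
Mt1 UMIs per Mt2 UMI against Mt3 UMIs per Mt1 UMI (log axis), 1 point per library for each of 6 classes, where a class had at least 50 cells and 10 Mt2 UMIs. Among these classes neuron-like and EPC-like points lie highest, at 0.613 to 2.54 Mt3 per Mt1, astrocyte-like points lie between 0.305 and 0.422, and pituitary stem-like points between 0.0377 and 0.0938, at 1.80 to 2.59 Mt1 per Mt2.

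The range of Mt3 UMIs per Mt1 UMI over libraries differed between classes: 0.305 to 0.422 in astrocyte-like cells, 0.613 to 1.01 in EPC-like cells, 0.870 to 2.54 in neuron-like cells and 0.0377 to 0.0938 in pituitary stem-like cells. Without library 3 the highest neuron-like value was 1.58, and without library 5 the highest pituitary stem-like value was 0.0477. The ranges of the astrocyte-like and EPC-like classes did not overlap. Those of EPC-like and neuron-like cells did. In EPC-like cells 3.51 to 5.25 Mt1 UMIs were counted per Mt2 UMI.

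Because these cells differ in number between libraries, the levels of 6 classes with at least 20 cells in every library were also weighted to one composition, a choice made after the data were seen. These classes hold 6.64% (library 6) to 95.3% (library 1) of a library's UMIs, with 19.3% in library 4 and 46.4% in library 9, so the result stands for the 6 classes and not for the library. Mt1 weighted in this way ran from 2259 CPM in library 7 to 6133 in library 2, so these libraries stayed lowest and highest. The weighted Mt3 of library 9 was below that of library 4, at 914 against 1340 CPM, where the plain totals had 3068 against 906. EPC-like cells, which are in none of the 6 classes, held 78.3% of the Mt3 UMIs of library 9.

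Genes with the most similar profile were sought by Pearson's r of log2(CPM + 10) among genes of at least 50 CPM in 1 or more of the points compared. Over the 8 listed types of at least 50 cells, Mt2 was the gene most like Mt1 among 7038 (r = 0.97), followed by Pax6 and Sox9, transcription factors of neural progenitors and astroglia. Sox9 was also first for Mt2 (0.97). For Mt3 the first was S100b (0.99), a calcium-binding protein of astrocytes and ependyma, and Mt1 ranked 151st (0.84). The points share 1 library, and levels in EPC and astrocytes weigh most: each of these genes was highest in EPC.

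Over 8 libraries of astrocyte-like cells Mt1 and Mt2 were closest to each other (r = 0.99), then Cyr61, an immediate early matrix gene. Mt3 had r = 0.95 with Mt1, the 13th closest gene, and Rmst, Cadm1 and Gstm1 came first for it (0.98, 0.97 and 0.97). These libraries differ in depth. In endothelial-like cells, the class with at least 50 cells in all 9 libraries and the higher metallothionein level, Mt2 was the 8th gene in likeness to Mt1 (0.92) and Mt3 the 993rd (0.44). Ptgds came first for Mt1 (0.96) and Paqr7 for Mt2 (0.95), while the gene most like Mt3 was Ttyh1 (0.95), a gene abundant in astrocytes.

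Lists of other genes of metal and redox handling and of glucocorticoid response were set beside the metallothioneins. Among 18 zinc-handling genes in the table, 16 could be compared in astrocytes, where 2 passed the 2-fold difference upward and 2 downward, beside 14.2% and 21.6% of all genes. The highest of them were the zinc importer Slc39a12, at 577 CPM in astrocytes (468 to 703) and 13.5 CPM in the other listed cells, the importer Slc39a1, at 171 against 174, and the exporter Slc30a10, at 82.4 against 20.7. In EPC none of 17 passed upward and 3 passed downward, beside 18.6% and 19.3% of all genes, and the highest were Slc39a1 and Slc39a12, both at 99.8 CPM. The median log2 difference of the zinc list was 0.07 in astrocytes and -0.08 in EPC, beside -0.08 and 0.06 over all genes compared. Mtf1 itself, singled out after its values were seen, had 5 UMIs in EPC, or 29.3 CPM (9.53 to 68.5), against 11.5 CPM in the other listed cells.

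Endothelial cells, with middling Mt1, had 3 of 15 zinc-handling genes past the fold upward and 1 downward, beside 10.2% and 17% of 9828 genes. The importer Slc39a10 stood at 419 CPM there against 43.1 in the other listed cells, and the exporter Slc30a1, itself a target of Mtf1, at 179 against 14.4. The ratio of Mt1 to the other listed cells, which include EPC and astrocytes, was 0.498 in endothelial cells, 0.379 in macrophages, 0.338 in pericytes, 0.187 in microglia and 0.123 in VSMCA. Of 6 copper-handling genes compared there 3 passed upward, with the copper chaperone Atox1 at 1972 CPM against 462. In EPC 1 of 6 passed upward, the copper-zinc superoxide dismutase Sod1 at 264 against 123 CPM, and 1 downward, Atox1 at 293 against 947, beside 18.6% and 19.3% of all genes. In astrocytes 1 of 7 copper-handling genes passed upward and 2 downward, Atox1 among them at 265 against 949, beside 14.2% and 21.6% of all genes.

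Of the redox response genes, 3 of 9 passed upward and 2 downward in EPC, few genes to set beside the 18.6% and 19.3% of all genes there. Those upward make or recycle glutathione: Gclm at 170 CPM against 66.4 in the other listed cells, Gsr at 82.2 against 36.1, and Gclc, named because it completes the 3, at 64.6 against 22.1. The peroxidase Prdx1, the highest of the list, stood at 874 CPM in EPC and as high in the other cells. In astrocytes none of 10 passed upward and 1 downward, beside 14.2% and 21.6% of all genes. Glucocorticoid receptor and target genes had 5 of 10 past the fold downward and none upward in EPC, beside 19.3% and 18.6% of all genes, with a median log2 difference of -0.92 against 0.06 for all genes. In VSMCA 6 of 9 compared passed downward, beside 25.3% of all genes, and 1 upward, Errfi1, beside 6.19%. In glutamatergic neurons 6 of 9 passed downward, beside 40.7%, and none upward, beside 21.6%. In astrocytes 4 of 9 passed downward, beside 21.6%, and 1 upward, beside 14.2%. In endothelial cells 3 of 9 passed upward, beside 10.2%, and 1 downward, beside 17%. In macrophages, microglia and pericytes the median log2 difference of this list was -0.33, -0.11 and 0.02, beside -0.36, -0.29 and -0.05 over all genes compared. The target Tsc22d3 was at 417 CPM in EPC (325 to 526), 612 in astrocytes (500 to 741) and 928 in endothelial cells (856 to 1006). The receptor gene Nr3c1 was at 29.3 CPM in EPC (9.53 to 68.5), 88.2 in astrocytes (49.4 to 146) and 154 in endothelial cells (125 to 188). For both genes the intervals of EPC and astrocytes overlapped.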

How the data were processed

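Single-cell suspensions were profiled by droplet 3′ sequencing (10x Chromium v2). The deposited file, per the submitters' processing notes and the methods, holds the counts that the authors made with Cell Ranger 2.2.0 on GRCm38: raw UMI counts of 18634 genes in 29571 cells of 9 libraries, not normalised. The annotation release is not given in the sources used here. Library totals ran from 1522766 to 5488950 UMIs.

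UMIs were summed per library, listed type or class and divided by the total (CPM). Exact 95% intervals, Poisson for CPM and Clopper-Pearson for the percent of cells, cover counting error only. Reads of a pool of 3 mice without a replicate library allow no test between libraries, so none was run, and 8 libraries stayed unmapped to region and sleep state. Fold differences were taken on log2(CPM + 10) among genes of at least 10 CPM, and read against all genes.

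Cells were clustered on counts scaled to 10000 per cell and logged, without the 3 metallothioneins. Settings were 2000 variable genes, 13 principal components, 20 neighbours and Leiden resolution 1 (leidenalg 0.10.2, igraph 0.11.9, scikit-learn 1.9.0). This gave 28 clusters. A cluster was named from at least 3 detected markers, and 27 were named. Scrublet called 140 cells (0.473%) as doublets, too few to have worked, so doublets were kept; clusters 24 and 25 were led by genes of 2 classes each. Thinning drew 500 UMIs per cell. Numbers were computed in Python 3.11.15 with numpy 2.4.6, scipy 1.17.1 and pandas 2.3.3, and drawn with matplotlib 3.10.9. The interval and fold routines were tested on simulated counts.

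The members, gene lists and markers were chosen with earlier results of these data known. Genes most like a member are the 5 of highest r among genes of at least 50 CPM, over listed types and over libraries of the class with the highest summed metallothionein level and 50 cells in every library. Likeness over astrocyte-like cells was added after seeing the data. Pathway genes are named by level, at most 3 per list, with exceptions stated. Upstream windows come from RefSeq (GRCm38.p6).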

Additional observations from a re-analysis of the deposited data

How the results depend on the processing

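Each library is the only one of its group, so no replicate could be left out, and no paired analysis was possible because a group has 1 library and 8 libraries were not mapped. The ratios between extreme libraries depended on which cells and totals were counted. Without mitochondrial, hemoglobin and hormone genes in the totals, library 2 exceeded library 7 2.94 times for Mt1 and 3.49 times for Mt2, and library 9 exceeded library 4 2.67 times for Mt3. In cells of at least 1000 UMIs these ratios were 0.480, 0.479 and 4.77, as means over cells 5.44, 6.45 and 2.49, and standardised to one composition 2.71, 3.14 and 0.682. The ratios below 1 turned the order, and the cause was not tested. Shares of cells at 1000 UMIs differed by 23.3 percentage points for Mt1 (library 9 less 7) and -6.81 for Mt2 (library 1 less 7), and at 250 UMIs by 16.5 for Mt1 and 28.8 for Mt3 (library 1 less 7), against 19.6, 19.6 and 33.5 at 500.

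In library 7 the level of each gene in EPC stayed above that in astrocytes under every alternative run. Shares of its cells thinned to 1000 UMIs were 97.3% in EPC and 98.1% in astrocytes for Mt1 and 86.3% and 86.5% for Mt2. The order did not hold in all libraries. Mt1 was higher in astrocyte-like than in EPC-like cells of library 4 (12331 against 11092 CPM) and library 5 (18877 against 14278). Mt2 was so in libraries 4, 5 and 8, with overlapping intervals in library 8. In library 9 EPC-like cells were higher for both genes, in library 8 for Mt1, and in libraries 4, 5, 8 and 9 for Mt3. Within library 7, the ratios of EPC to astrocytes in cells of at least 1000 UMIs were 1.24, 1.40 and 2.61 for Mt1, Mt2 and Mt3. The mean over cells gave 1.5 for Mt1 and clusters in place of listed types 1.37 for Mt2. In astrocyte-like cells of at least 1000 UMIs, the ratio of library 2, with 20 such cells, to library 7 (Mt1, Mt2) or 9 (Mt3) was 1.61, 1.30 and 1.69, while the highest exceeded the lowest of the libraries with 50 such cells 2.08, 1.91 and 2.67 times. It was 2.60 for Mt1 and 2.44 for Mt3 with the reduced totals, and 2.08 for Mt3 at resolution 0.5. Ratios within EPC-like cells held within their intervals under the alternatives run, and every ratio did so without shared barcodes. Leaving out the mixed clusters 24 and 25 could not move these ratios, since they belong to the microglia-like and VSMCA-like classes. In microglia-like cells the Mt2 ratio was 15.8 with cluster 24 and 18.0 without it. Both choices were made after seeing the data. With the level of the lowest type subtracted, 9 of the 11 Mt1 levels of listed types moved beyond their interval, 7 of them by over 1.5 times, and no such correction could be made for Mt2 and Mt3.

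Of the 5 genes most like a member over listed types, a pseudocount of 1 CPM kept 3 for Mt1, 2 for Mt2 and 3 for Mt3, and Spearman's rho kept 0, 0 and 1. In endothelial-like cells the pseudocount kept 3 for Mt2 and rho kept 3, 2 and 1, so these lists are no stable sets. Genes past the fold in astrocytes numbered 1498 of those of at least 10 CPM, 2414 with a pseudocount of 1 CPM, 819 at 50 CPM and 70 at 500 CPM. In EPC the 2010 became 1063 and 82, over libraries the 8788 of astrocyte-like cells 3024 and 158, and the 5717 of EPC-like cells 1624 and 62. The 500 CPM setting, the composition and the 250 UMIs were added after seeing the data. Levels resting on few UMIs (Mt2 and Mt3 in macrophages, HbVC and other neurons) are limited by depth.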
